A study of Homo sapiens with 6 samples.

Results

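Nucleotide synthesis enzymes were examined as a group of 34 genes, chosen by name from the pathways that build purine and pyrimidine nucleotides and their deoxynucleotides. All 34 were found by their current symbols among the 58884 genes of the count tables, and all 34 passed the filter on low counts that left 15001 genes for testing. They were taken in 4 sets, of 11 deoxynucleotide, 12 purine, 7 pyrimidine and 4 shared steps. The cells were HSC-4, an established human oral squamous cell carcinoma line that grows as an epithelial sheet. The study's methods describe mRNA libraries built from total RNA. Sequenced were 3 libraries of cells exposed for 24 h to 50 µM DAPT and 3 control libraries. DAPT is a small molecule that blocks γ-secretase and with it the release of the Notch intracellular domain. The methods describe the controls as cells given the vehicle DMSO for the same time. The deposited tables of the control libraries carry the letters GM, which are not explained, so an effect of DMSO cannot be told apart from that of DAPT if these cells were grown without it. Both groups are 1 cell line with no genetic change, and γ-secretase cleaves many membrane proteins besides Notch. The labels do not say whether the replicates were separate cultures, so p-values measure the spread between these libraries, which may be technical.

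Cells make purine and pyrimidine nucleotides either from small precursors, by de novo synthesis on phosphoribosyl pyrophosphate, or by salvage of free bases and nucleosides. Ribonucleotide reductase then converts ribonucleoside diphosphates to deoxynucleotides, and thymidylate is made separately by methylation of dUMP or by phosphorylation of thymidine. Many of these genes are transcribed most strongly around S phase, when DNA is copied, and thymidylate synthase and inosine monophosphate dehydrogenase are drug targets in growing cells.

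The libraries held between 12276313 and 16317672 assigned reads, and a count of 3 reads, taken as the floor, corresponds to 0.184 to 0.244 CPM (read counts scaled to a common library size). The floor covers counting error only. The direct Notch targets HES1 and HEY1 fell by 0.77 and 1.98 on the log2 scale (adjusted p = 7.2e-08 and 2.03e-13, Benjamini-Hochberg adjusted over all tested genes, edgeR quasi-likelihood test). Of the squamous epithelium markers KRT5, KRT14, KRT6A, TP63, SFN and CDH1, KRT14 was nearly absent (36 to 49 reads in control and 0 to 11 in DAPT libraries), and the summed level of the 6 genes was 4326 to 4457 CPM in control and 2621 to 2735 CPM in DAPT libraries. KRT5 was the largest part of that sum, and CDH1 went the other way, rising by 0.27 on the log2 scale (adjusted p = 1.39e-04, edgeR). The leukocyte markers PTPRC, CD3E and CD68 had at most 3 reads each in any library. Control replicate 1 stood apart from the other controls. The fibroblast markers COL1A1, COL1A2, COL3A1 and PDGFRB, 4 of 4 of them highest there, summed to 517 CPM in that library against 54.2 and 55.2 CPM in the other controls and 49.1 to 54.2 CPM in the DAPT libraries. COL1A2 alone had 3452 reads in control replicate 1 and 3 to 28 reads in every other library. Whether that library held other cells or RNA was not tested, and results that rest on it are given with and without it.

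Promoter stretches of 3 genes and 1 gap between genes are printed for orientation, to show where genes with decreased transcripts start and which motifs lie before that start. Promoter windows from RefSeq on GRCh38.p14, running from 250 bases before to 50 bases after each start, matched 31 of the 34 genes with 44 windows, and RRM2B, ADSL and IMPDH2 had none. The windows were searched on both strands for an E2F motif (TTTCCCGC, TTTGGCGC, TTTCGCGC or TTTGCCGC), for the E-box CACGTG and for the CCAAT box. Shown are the 250 bases before the start of genes that fell with DAPT, held an E2F or CCAAT match there and overlapped no annotated untranslated region on either strand. Capitals mark the match, written 5′ to 3′ on the gene's strand. The stretches lie at chr18:657403-657652 (plus strand) for TYMS, chr11:4094435-4094684 (plus strand) for RRM1 and chr17:51153309-51153558 (plus strand) for NME1. The 125 bases at chr4:56435616-56435740 separate PPAT from PAICS, which are transcribed away from each other, and are given on the minus strand, towards PPAT.
TYMS: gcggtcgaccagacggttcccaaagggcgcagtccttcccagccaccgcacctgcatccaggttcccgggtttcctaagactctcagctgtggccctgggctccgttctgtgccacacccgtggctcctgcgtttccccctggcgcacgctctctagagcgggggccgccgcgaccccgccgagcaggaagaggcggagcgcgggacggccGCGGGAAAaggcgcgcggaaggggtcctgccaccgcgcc
RRM1: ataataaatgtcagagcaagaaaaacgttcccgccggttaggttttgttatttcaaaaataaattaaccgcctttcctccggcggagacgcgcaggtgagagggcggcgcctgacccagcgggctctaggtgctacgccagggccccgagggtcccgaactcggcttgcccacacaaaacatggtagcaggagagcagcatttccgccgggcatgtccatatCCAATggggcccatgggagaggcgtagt
NME1: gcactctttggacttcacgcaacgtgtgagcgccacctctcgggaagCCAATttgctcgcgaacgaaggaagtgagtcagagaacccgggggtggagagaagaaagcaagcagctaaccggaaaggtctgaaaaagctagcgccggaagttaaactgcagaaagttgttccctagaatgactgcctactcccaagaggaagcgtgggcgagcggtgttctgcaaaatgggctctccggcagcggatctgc
PPAT-PAICS gap: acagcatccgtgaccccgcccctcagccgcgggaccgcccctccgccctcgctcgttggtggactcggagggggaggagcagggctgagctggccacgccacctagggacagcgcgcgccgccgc

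The E2F motif began 39 bases before the start of TYMS, and the CCAAT match lay 28 bases before that of RRM1 and 203 bases before that of NME1. An E2F motif was found for 5 of the 31 genes (16.1%), DCK, DUT, TYMS, GART and PRPS2, against 3.99% of the 27305 genes with a promoter in the table. Among the genes lower with DAPT it was present for 4 of 22 (18.2%), and among those not called lower for 1 of 9 (11.1%). The same shares were 18.2% and 33.3% for the E-box and 40.9% and 22.2% for the CCAAT box. These differences were not tested. The E-box was found for 7 of 31 genes (22.6%, ATIC, PPAT, PAICS, DCK, DCTPP1, DHODH and NME1) against 8.77% of all, and the CCAAT box for 11 of 31 (35.5%) against 39.7% of all. Windows of PPAT and PAICS overlap, so 1 E-box may be counted for both. More windows for a gene allow more matches, and there were 44 windows for the 31 genes against 35116 for the 27305. RRM2 held 3 CCAAT matches in 1 of its windows, and GART held 3 in each of 2 windows that overlap. TK1, DTYMK and SAMHD1 held 2 in 1 window each, and SAMHD1 was not called. These letters are a description of the windows, and no factor binding was measured.

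The genes of nucleotide synthesis were mostly lower with DAPT. At an adjusted p under 0.05, 23 of the 34 genes were lower, where 18% of all tested genes were called lower, and 1 gene, RRM2B, was higher, where 17.2% of all tested genes were called higher. The remaining 10 genes did not pass. The median log2 fold change was −0.29, against 0.01 for all tested genes, and values ran from −0.83 for TK1 to 0.38 for RRM2B, so that 0 genes changed at least 2-fold. All DAPT libraries lay below all control libraries for 25 genes (22.7% of all tested genes did so) and above them for RRM2B (23.6% of all tested genes). Without control replicate 1, 23 genes were again lower, against 19.1% of all tested genes, and 3 were higher, RRM2B, SAMHD1 and NT5E, against 18% of all tested genes. In bulk RNA, fewer cells in S phase and less of these transcripts in each cell cannot be told apart.

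**Figure D1:**
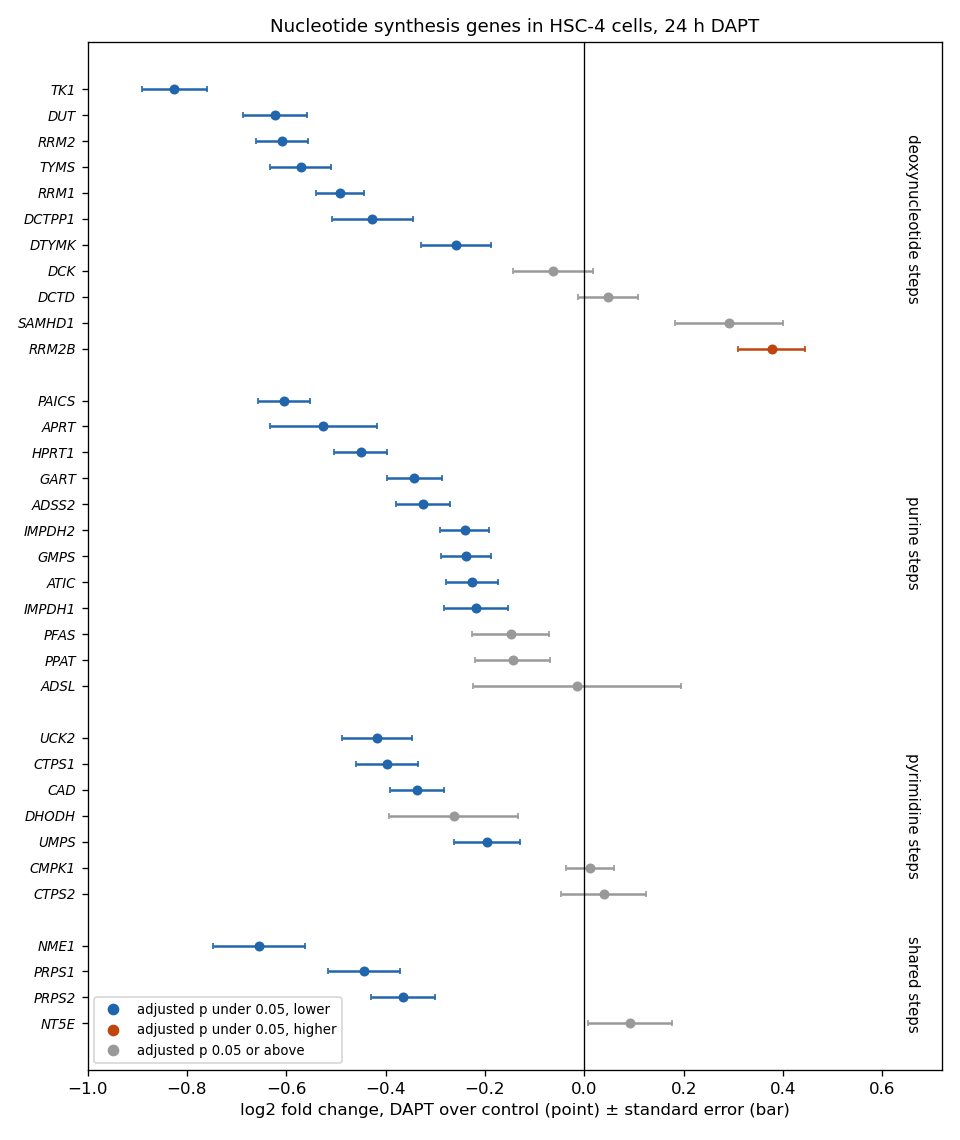
The horizontal axis gives the log2 fold change of DAPT over control libraries (edgeR, 3 libraries a group; point) with its standard error (bar), and the vertical axis lists the 34 genes by step. Blue points (23 genes) are called lower, the red point (RRM2B) is called higher and the grey points (10 genes) did not pass an adjusted p of 0.05.

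Summed over all 34 genes, the level was 3065, 3086 and 3106 CPM in the control libraries and 2516, 2470 and 2521 CPM in the DAPT libraries, a difference of −0.30 on the log2 scale. Each DAPT sum lay below each control sum. The same difference was −0.32 for the deoxynucleotide steps, −0.33 for the purine steps, −0.17 for the pyrimidine steps and −0.33 for the shared steps, given without a test because the genes were chosen with results known. A single gene, CMPK1, made up 176 of the 468 CPM of the pyrimidine sum in control and 178 of 416 CPM in DAPT libraries. By gene, the median log2 fold change was −0.26 for pyrimidine and −0.24 for purine steps.

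**Figure D2:**
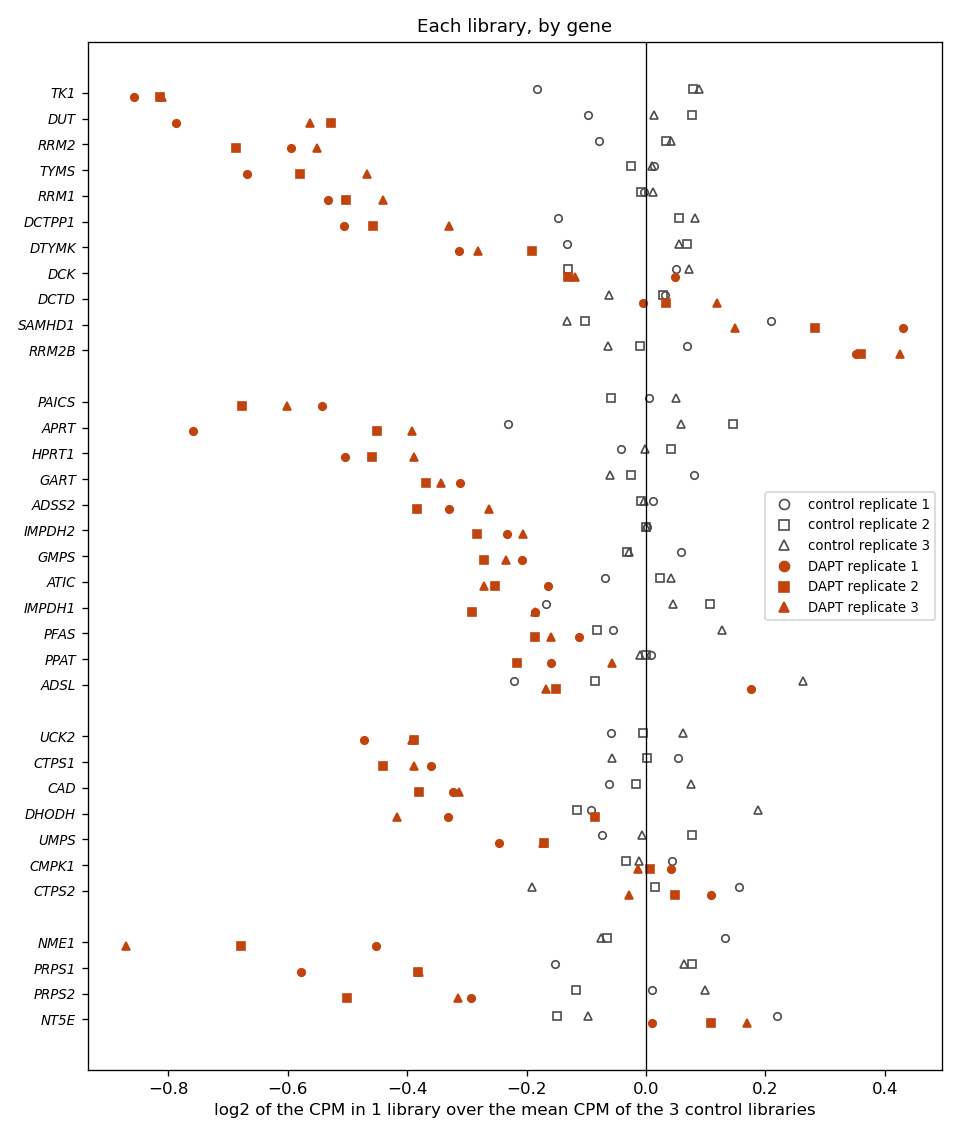
Each symbol is 1 library, plotted as the log2 of its CPM over the mean CPM of the 3 control libraries, for the 34 genes by step. Open symbols are control and filled symbols DAPT. The groups are apart for 26 genes, 25 lower with DAPT (22.7% of all tested genes were so) and RRM2B higher (23.6% were so). They overlap for 8, among them SAMHD1 and NT5E, where control replicate 1 is the highest control.

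The 11 deoxynucleotide genes held the largest decrease, that of TK1, and the only called increase. Of these, 7 were lower (TK1, DUT, RRM2, TYMS, RRM1, DCTPP1 and DTYMK) and 1 was higher (RRM2B). Over all tested genes, 18% were called lower and 17.2% higher. Another 3 deoxynucleotide genes did not pass (DCK, DCTD and SAMHD1), and the median of the 11 was −0.43 on the log2 scale. TK1, the cytosolic thymidine kinase that salvages thymidine, was at 101, 121 and 122 CPM in control and 63.4, 65.4 and 65.5 CPM in DAPT libraries. Control replicate 1 was the lowest control library, and the groups did not overlap. The log2 fold change was −0.83 ± 0.07 (SE, adjusted p = 4.68e-09, edgeR), a fold of 0.564. TYMS, thymidylate synthase, which methylates dUMP to dTMP, was measured at 77.7, 75.7 and 77.5 CPM in control and at 48.5, 51.5 and 55.7 CPM in DAPT libraries. The controls lay close together, all above the DAPT libraries. Its log2 fold change was −0.57 ± 0.06 (SE, adjusted p = 2.19e-07, edgeR). The exons of TYMS are overlapped over 47.5% of their bases by ENOSF1 and TYMSOS on the opposite strand, and ENOSF1, which had 589 to 841 reads a library, did not pass the test (log2 fold change −0.07, adjusted p = 0.408, edgeR).

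DTYMK, the thymidylate kinase that follows both routes, had a smaller fold change, a difference that was not tested. Its level went from 46.8, 53.7 and 53.3 CPM to 41.2, 44.9 and 42.2 CPM, a log2 fold change of −0.26 ± 0.07 (SE, adjusted p = 0.00686, edgeR). The groups did not overlap, with control replicate 1 nearest to the DAPT libraries. DUT, the dUTPase that keeps uracil out of DNA and supplies dUMP, was at 185, 209 and 200 CPM in control and 115, 137 and 134 CPM in DAPT libraries. Every DAPT library was below every control, and the log2 fold change was −0.62 ± 0.06 (SE, adjusted p = 5.84e-07, edgeR). DCTPP1, a pyrophosphatase that clears dCTP and modified deoxycytidine nucleotides, averaged 35.5 ± 3.01 CPM in control and 26.4 ± 1.69 CPM in DAPT libraries (SD, n = 3), a log2 fold change of −0.43. Its exons are overlapped over 42.1% of their bases by ZNF771 on the opposite strand.

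Ribonucleotide reductase showed its subunits moving in different directions. RRM1, the large catalytic subunit, was at 196, 195 and 198 CPM in control and 136, 139 and 145 CPM in DAPT libraries (log2 fold change −0.49 ± 0.05, SE, adjusted p = 7.4e-08, edgeR). RRM2, the small subunit that accumulates in S phase, was at 231, 249 and 251 CPM and then at 161, 151 and 166 CPM (log2 fold change −0.61 ± 0.05, SE, adjusted p = 8.79e-09, edgeR). For both genes the groups were apart. RRM2B, the p53-inducible small subunit that serves DNA repair and mitochondrial DNA outside S phase, was at 41.4, 39.2 and 37.8 CPM in control and 50.3, 50.7 and 53.0 CPM in DAPT libraries. All DAPT libraries were higher, with a log2 fold change of 0.38 ± 0.07 (SE, adjusted p = 1.48e-04, edgeR), and 0.34 to 0.41 when any 1 library was left out. CDKN1A, an inhibitor of cyclin-dependent kinases, rose by 0.29 on the log2 scale (adjusted p = 1.16e-04, edgeR). Activity of p53 was not tested.

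SAMHD1, which hydrolyses deoxynucleotides and so lowers their pool, was at 218, 176 and 172 CPM in control and 254, 230 and 209 CPM in DAPT libraries. Control replicate 1, the library with the fibroblast markers, lay above DAPT replicate 3, and the other controls lay below all DAPT libraries. The log2 fold change was 0.29 ± 0.11 (SE, approximate 95% interval 0.08 to 0.50) and did not pass (adjusted p = 0.0783, edgeR). Without control replicate 1 it was 0.41 (adjusted p = 5.77e-05, edgeR), and without DAPT replicate 3 it was 0.36 (adjusted p = 0.0189, edgeR). With any other library left out it did not pass (adjusted p from 0.145 to 0.209, edgeR). Deoxycytidine kinase, DCK, which phosphorylates salvaged deoxynucleosides, was at 29.7 ± 2.23 CPM in control and 28.4 ± 2.01 CPM in DAPT libraries (SD, n = 3), a log2 fold change of −0.06 with a 95% interval of −0.22 to 0.10. The deaminase DCTD, which makes dUMP from dCMP, was at 61.0 ± 2.22 and 63.2 ± 2.80 CPM (SD, n = 3), with a log2 fold change of 0.05 and an interval of −0.07 to 0.17.

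**Figure D3:**
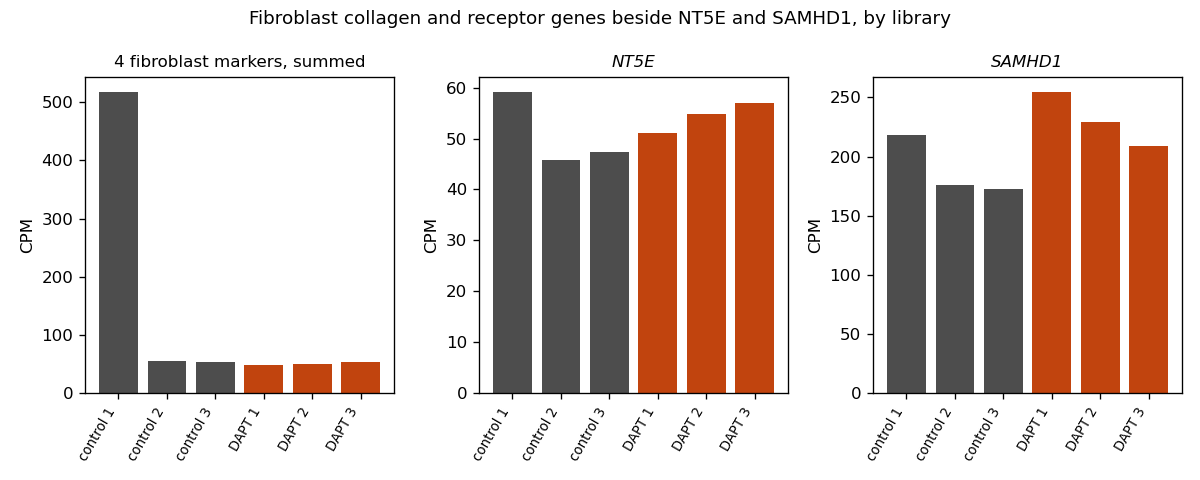
Bars give CPM in each of the 6 libraries (control grey, DAPT red, axes start at 0) for the sum of the 4 fibroblast markers, NT5E and SAMHD1. Control 1 holds 517 CPM of the fibroblast markers and is the highest control library for both genes. It was also the highest control for other genes of the group, among them RRM2B, NME1, GART and GMPS.

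All 12 purine genes had a fold change below 0, as did 7301 of all 15001 tested genes. At an adjusted p under 0.05, 9 were lower and 0 were higher, where 18% and 17.2% of all tested genes were called so. Another 3 did not pass (PFAS, PPAT and ADSL), and the median was −0.24. In de novo synthesis, PAICS, which carries out 2 successive steps on the imidazole ring, showed the largest decrease. It was at 187, 179 and 193 CPM in control and 128, 117 and 123 CPM in DAPT libraries, without overlap (log2 fold change −0.60 ± 0.05, SE, adjusted p = 9.1e-09, edgeR). PPAT, the amidotransferase that commits phosphoribosyl pyrophosphate to purines and is transcribed away from PAICS across the gap printed above, was at 27.6, 27.4 and 27.3 CPM in control and 24.6, 23.6 and 26.4 CPM in DAPT libraries. The groups did not overlap here either, but the log2 fold change of −0.14 ± 0.08 (SE) did not pass (adjusted p = 0.147, edgeR). Whether the 2 neighbours changed to different degrees was not tested.

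GART, which bears 3 activities of the pathway on 1 protein, fell from 85.9 ± 4.41 to 67.8 ± 1.36 CPM (SD, n = 3), a log2 fold change of −0.34 (adjusted p = 5.94e-05, edgeR). ATIC, which closes the purine ring to give inosine monophosphate, fell from 131 ± 5.28 to 112 ± 4.47 CPM (SD, n = 3), a log2 fold change of −0.23. PFAS, the synthase between the GART steps, was at 32.0 ± 2.56 and 28.8 ± 0.746 CPM (SD, n = 3), with a log2 fold change of −0.15 that did not pass (adjusted p = 0.145, edgeR). ADSL, adenylosuccinate lyase, had 32 to 48 reads in every library and a log2 fold change of −0.01 with a 95% interval of −0.42 to 0.40, too wide to show the smaller changes seen in other purine genes. Its exons share 18.9% of their bases with ENSG00000284431 on the same strand, which itself had at most 3 reads, and reads falling on both genes were counted for neither under the default setting of the counter.

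Beyond inosine monophosphate, ADSS2 on the adenylate branch and IMPDH1, IMPDH2 and GMPS on the guanylate branch were lower, and ADSL, which also completes adenylate, was not called. ADSS2, the synthetase of the adenylate branch, was at 89.9, 88.7 and 89.0 CPM in control and 70.9, 68.4 and 74.3 CPM in DAPT libraries (log2 fold change −0.33, adjusted p = 6.98e-05, edgeR). On the guanylate branch the dehydrogenases IMPDH2 and IMPDH1 fell by 0.24 and 0.22 and the synthetase GMPS by 0.24 on the log2 scale (adjusted p = 6.62e-04, 0.0117 and 7.99e-04, edgeR). IMPDH2 was at 137 CPM in each control library and at 116, 112 and 118 CPM in the DAPT libraries. IMPDH1 was at 93.7, 113 and 109 CPM in control and 92.5, 86.0 and 92.4 CPM in DAPT libraries, with control replicate 1 close to the DAPT libraries, and its call was lost without control replicate 2 (adjusted p = 0.0696, edgeR) or DAPT replicate 2 (adjusted p = 0.0723, edgeR). The salvage enzymes HPRT1, for hypoxanthine and guanine, and APRT, for adenine, were lower too. HPRT1 was at 112, 119 and 115 CPM and then at 81.1, 83.8 and 87.9 CPM (log2 fold change −0.45, adjusted p = 9.41e-07, edgeR). APRT spread more, from 40.1, 52.1 and 49.0 CPM to 27.8, 34.4 and 35.9 CPM, with the lowest control above the highest DAPT library (log2 fold change −0.53 ± 0.11, SE, adjusted p = 0.0018, edgeR).

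Among the 7 pyrimidine genes, 4 were lower (UCK2, CTPS1, CAD and UMPS) and 0 were higher. Over all tested genes, 18% were called lower and 17.2% higher. Another 3 pyrimidine genes did not pass (DHODH, CMPK1 and CTPS2), and the median of the 7 was −0.26 on the log2 scale. CAD, the protein that starts pyrimidine synthesis, was at 93.8, 96.8 and 103 CPM in control and 78.3, 75.2 and 78.8 CPM in DAPT libraries (log2 fold change −0.34, adjusted p = 5.58e-05, edgeR). DHODH, the mitochondrial dehydrogenase of the next stage, had low levels of 8.66, 8.52 and 10.5 CPM in control and 7.34, 8.70 and 6.91 CPM in DAPT libraries. Those groups overlapped, and the log2 fold change of −0.26 ± 0.13 (SE) did not pass (adjusted p = 0.122, edgeR). UMPS, which completes uridine monophosphate, fell from 52.3 ± 2.75 to 45.7 ± 1.36 CPM (SD, n = 3, log2 fold change −0.20, adjusted p = 0.0243, edgeR), and its call was lost when control replicate 2 (adjusted p = 0.128, edgeR), control replicate 3 or any 1 DAPT library was left out.

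UCK2, the uridine and cytidine kinase of salvage, was at 43.3, 44.9 and 47.0 CPM in control and 32.5, 34.4 and 34.3 CPM in DAPT libraries, without overlap (log2 fold change −0.42, adjusted p = 8.83e-05, edgeR). CTPS1, a CTP synthase that proliferating lymphocytes depend on, fell from 59.7 ± 2.28 to 45.4 ± 1.26 CPM (SD, n = 3, log2 fold change −0.40, adjusted p = 4.17e-05, edgeR). Its isozyme CTPS2 was at 27.5 ± 3.28 and 28.4 ± 1.36 CPM (SD, n = 3), a log2 fold change of 0.04 with a 95% interval of −0.13 to 0.21. CMPK1, the kinase that raises UMP and CMP to diphosphates, was at 176 ± 4.86 and 178 ± 3.45 CPM (SD, n = 3), with an interval for its log2 fold change of −0.08 to 0.11. Of the genes without a call, CMPK1 had the narrowest interval.

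Of the 4 genes of shared steps, PRPS1, PRPS2 and NME1 were lower, as were 18% of all tested genes, and NT5E did not pass. PRPS1 and PRPS2 make phosphoribosyl pyrophosphate for purine, pyrimidine and salvage routes. PRPS1 was at 59.7, 70.1 and 69.4 CPM in control and 44.5, 51.0 and 51.0 CPM in DAPT libraries (log2 fold change −0.44, adjusted p = 6.66e-05, edgeR). PRPS2 was at 93.7, 85.7 and 99.6 CPM and then at 75.9, 65.7 and 74.8 CPM (log2 fold change −0.37, adjusted p = 1.62e-04, edgeR), again without overlap. NME1, a nucleoside diphosphate kinase that makes triphosphates, was at 53.1, 46.3 and 46.0 CPM in control and 35.4, 30.3 and 26.5 CPM in DAPT libraries (log2 fold change −0.66 ± 0.09, SE, adjusted p = 2.48e-05, edgeR). All DAPT libraries lay below all controls. NME1 shares 18.6% of its exon bases with the readthrough gene NME1-NME2, which had 0 reads. Reads falling on both genes were counted for neither, so these 0 reads do not show that readthrough was absent. The NME1 values leave out reads on the shared bases. NT5E, the cell surface nucleotidase CD73 that forms adenosine outside the cell, was at 59.1, 45.8 and 47.5 CPM in control and 51.1, 54.8 and 57.1 CPM in DAPT libraries. Control replicate 1 was the highest of all libraries, and the other controls were below all DAPT libraries. The log2 fold change was 0.09 (adjusted p = 0.431, edgeR), and 0.22 without control replicate 1 (adjusted p = 0.00953, edgeR).

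Within a library, the ratio of 2 isozymes does not depend on how libraries are scaled, and 4 pairs were compared. The log2 ratio of RRM2 to RRM2B reads was 2.48, 2.67 and 2.73 in control and 1.68, 1.58 and 1.65 in DAPT libraries, a difference of −0.99. That of CTPS1 to CTPS2 was 1.02, 1.10 and 1.25 in control and 0.65, 0.63 and 0.76 in DAPT libraries, a difference of −0.45. In both pairs all DAPT libraries lay below all controls, which gives p = 0.1 in a two-sided exact permutation test, the smallest that 3 against 3 libraries allow (0.2 adjusted over the 4 pairs). The ratios of PRPS1 to PRPS2 (difference −0.08, exact p = 0.7, adjusted 0.9) and of IMPDH1 to IMPDH2 (difference 0.02, exact p = 0.9, adjusted 0.9) overlapped between the groups.

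**Figure D4:**
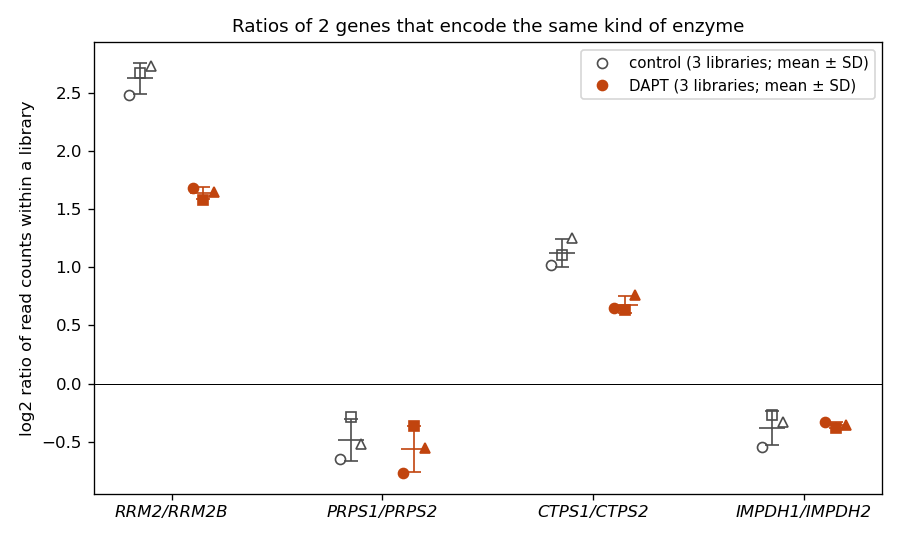
The vertical axis is the log2 ratio of the read counts of 2 genes within 1 library, where symbols are single libraries (open control, filled DAPT) and bars give mean ± SD of 3 libraries. RRM2/RRM2B falls from 2.63 to 1.64 and CTPS1/CTPS2 from 1.12 to 0.68, while the other pairs overlap.

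To compare levels between genes, CPM was divided by the length of each gene's merged exons in kb. In control libraries HPRT1 was highest at 71.4 ± 2.09 CPM per kb (SD, n = 3), ahead of TK1 at 62.3 ± 6.42, DUT at 53.9 ± 3.25, IMPDH2 at 49.3 ± 0.0384 and RRM1 at 46.4 ± 0.317 CPM per kb. TK1 and DUT overlapped, as did RRM1 and CMPK1 (45.8 ± 1.26 CPM per kb), and in all 20 of the 33 pairs of neighbours in this order overlapped between control libraries. DHODH at 1.33 ± 0.161 and ADSL at 0.388 ± 0.0694 CPM per kb closed the order. In the DAPT libraries HPRT1 was again first, at 52.3 ± 2.11 CPM per kb, ahead of CMPK1 at 46.2 ± 0.897, IMPDH2 at 41.7 ± 1.11 and TK1 at 35.1 ± 0.645 CPM per kb. CMPK1 stood higher in this order with its own level nearly the same in both groups, so ranks were not read as changes. Merged exons include those of rare transcripts, so a level per kb understates genes with long annotated exons. Reads on exon bases shared with another gene on the same strand were not counted. These were 18.9% of the bases of ADSL and 18.6% of those of NME1, so the places of both in the order may be too low. For DCK, ADSS2 and UCK2 they were 6.41%, 4.56% and 0.802%. The share of reads lost may be larger than the share of bases and was not measured.

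**Figure D5:**
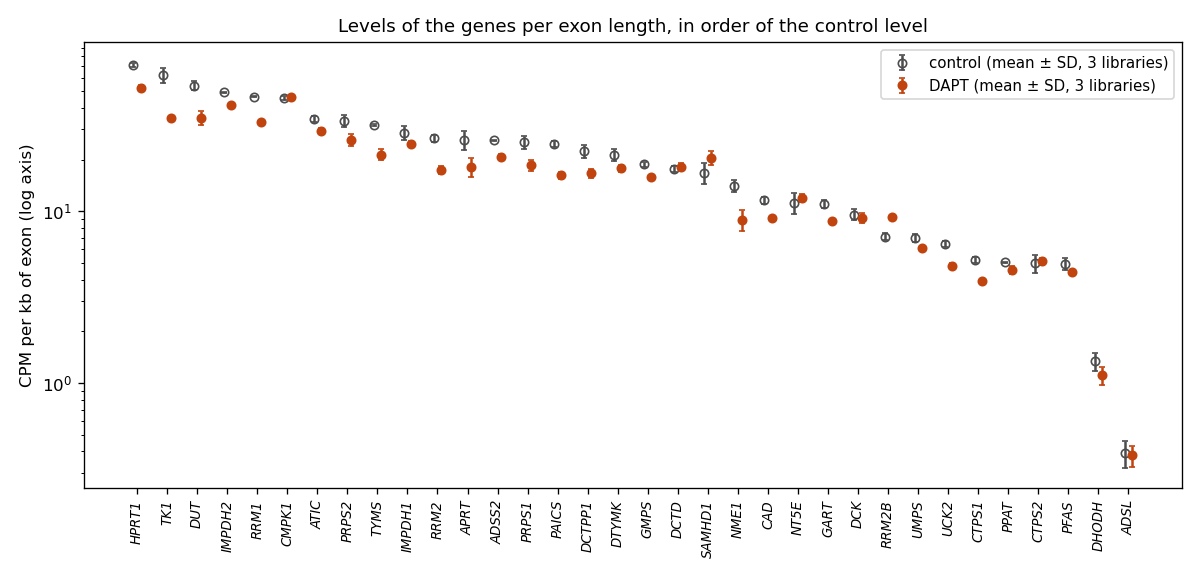
The vertical axis (log scale) gives CPM per kb of merged exon, mean ± SD of 3 libraries, for the 34 genes in order of their control level (open grey control, filled red DAPT). Levels span from 71.4 for HPRT1 to 0.388 for ADSL, whose reads on exon bases shared with another gene were not counted. The DAPT points lie below the control points for most genes but not for CMPK1, DCTD, SAMHD1, NT5E, RRM2B and CTPS2.

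Other genes of nucleotide metabolism were listed by name, 46 in all, of which 45 could be tested. Of these, 16 were lower and 3 higher, where 18% and 17.2% of all tested genes were called so, and their median was −0.05 on the log2 scale. Without control replicate 1 the counts were 15 and 4, against 19.1% and 18% of all tested genes. Among the lower genes with the smallest adjusted p were MTHFD1, which supplies formyl groups for purine rings, the purine catabolic enzymes ADA and PNP, and the nucleotide glycosidase DNPH1. MTHFD1 was at 433, 438 and 433 CPM in control and 275, 261 and 280 CPM in DAPT libraries (log2 fold change −0.68, adjusted p = 3.05e-10, edgeR). ADA and PNP fell by 0.99 and 0.92 and DNPH1 by 0.69 on the log2 scale (adjusted p = 2.26e-09, 4.81e-09 and 5.5e-07, edgeR). The genes that rose were NT5C2, a cytosolic nucleotidase (log2 fold change 0.23, adjusted p = 0.00191, edgeR), the mitochondrial kinase CMPK2 (1.33, adjusted p = 0.00325) and the mitochondrial thymidine kinase TK2 (0.24, adjusted p = 0.0325). CMPK2 was low, at 11 to 21 reads in control and 28 to 67 reads in DAPT libraries, and TK2 kept its call in 3 of the 6 fits that left out 1 library.

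Most genes of an S phase list were lower as well. Of the S phase list of the Seurat package, 40 genes remained once RRM1, RRM2 and TYMS were set aside, and 35 of these 40 were lower and 0 higher, against 18% and 17.2% of all tested genes, and their median was −0.50 on the log2 scale. PCNA, the sliding clamp of replication, fell by 0.61 and the helicase subunit MCM2 by 0.72 on the log2 scale (adjusted p = 1.2e-08 and 8.79e-09, edgeR). MKI67 and TOP2A, which mark cycling cells through G2 and mitosis, fell by 0.25 and 0.17 (adjusted p = 5.17e-04 and 0.00783, edgeR). The part of the S phase share of the cells in these values was not tested.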

How the data were processed

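Stranded RNA-seq libraries of HSC-4 cells were aligned by the authors to the human genome GRCh38 and reads were counted per gene. Per the file headers, the deposited counts are whole reads per gene from featureCounts v1.6.3 (exons joined by gene, Ensembl 96 annotation, strand setting 1), not normalized, with reads shared by several genes left out by default; the submitters' processing notes also list HISAT2, HTSeq and DESeq2. Each deposited table also gives gene length in bases, the merged exon length. The kit marks strand, and under the setting used the counts of mitochondrial genes fell on the plus strand, with 0.0414 to 0.114% on the minus strand genes. Groups come from the sample titles, 3 libraries each.

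Counts were fitted in edgeR 4.0.16 (R 4.3.3) over all 15001 genes that passed filterByExpr (minimum count of 10), with TMM normalization, robust quasi-likelihood dispersion, no covariate and Benjamini-Hochberg adjustment over all tested genes at 0.05. Single-gene CPM use TMM-scaled library sizes and marker sums use library totals. Fold changes are shown as log2 with standard errors, taken as the size of the log2 fold change over the square root of the F statistic. The 95% intervals are 1.96 standard errors on each side. They leave out the uncertainty of the dispersion, so they are approximate and somewhat too narrow. Isozyme ratios were compared by exact permutation over every split of the libraries (numpy 2.4.6). The scripts were tested on simulated data. Libraries with the same number were not paired in the labels, and their deviations from the group means correlated at 0.0194, 0.0376 and −0.0193 over 14199 genes. The least different libraries, control replicates 2 and 3, differed by more than sampling noise (chi-square of 1.58 per degree of freedom). Alternatives were DESeq2 1.42.0, a likelihood ratio test, RLE or library-size scaling, no filter, a stricter filter that asks 10 counts of all libraries, non-robust dispersion, a replicate block and leaving out each library. Every one of the 34 genes is named, and of the other nucleotide genes the 5 with the smallest adjusted p in each direction, of which 1 is not reported here. The genes, lists and tests were chosen with earlier results of these data known. Sequences and promoter windows are those of RefSeq for GRCh38.p14.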

Additional observations from a re-analysis of the deposited data

How the results depend on the processing

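The 23 lower calls and the RRM2B call were recomputed under 8 other settings and 6 fits that each left out 1 library. Of the 23, 21 were called lower in all 14, the exceptions being IMPDH1 and UMPS, and RRM2B was called higher in all 14. UMPS was also lost with DESeq2 (adjusted p = 0.0508) and with library size alone (adjusted p = 0.0804, edgeR). The number of lower genes ran from 21 to 23, and that of higher genes from 1 to 3 over the 34 genes, from 1 to 2 among deoxynucleotide genes and from 0 to 1 among shared steps when 1 library was left out.

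SAMHD1 joined RRM2B, giving 2 higher genes of the 34 and 2 among the deoxynucleotide genes, with the likelihood ratio test, without a low-count filter and with non-robust dispersion (adjusted p = 0.0294, 9.95e-06 and 0.0106). The replicate block also gave 2 and 2, with SAMHD1 at an adjusted p of 4.3e-04, and it changed no other call among the 34 genes. Same-numbered libraries share only a number, and the block moved the lower calls over all genes from 2707 to 2737. SAMHD1 did not pass with DESeq2 (adjusted p = 0.116). It also did not pass in edgeR with RLE scaling, library size alone or the stricter filter (adjusted p = 0.102, 0.0510 and 0.0705).

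Scaling by library size alone gave 2156 lower and 3445 higher calls over all genes, against 2707 and 2574, with a median of 0.06 against 0.01. It raised the higher calls among the other nucleotide genes from 3 to 6 and gave summed log2 differences of −0.26 for all 34 genes, −0.28 for deoxynucleotide, −0.29 for purine, −0.12 for pyrimidine and −0.28 for shared steps. The isozyme differences of PRPS1 to PRPS2 ran from −0.17 to 0.028 with 1 library left out, turning to 0.023 without control replicate 2 and 0.028 without DAPT replicate 1. That of IMPDH1 to IMPDH2 ran from −0.057 to 0.081 and turned to −0.057 without control replicate 1. The cause of these changes was not tested. DESeq2 called 2172 genes lower and 1802 higher.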
